A study of Homo sapiens with 3 samples.

Results

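YAP1 and WWTR1 are the genes whose transcripts the siRNAs of this series were aimed at, YAP1 by siYAP and WWTR1, which encodes TAZ, by siTAZ. Their values come from every probe set that the platform annotation assigns to either symbol: 2 probe sets for YAP1 and 1 for WWTR1. They are 2 of 14884 named genes on the array. The data are 3 one-colour Affymetrix whole-transcript arrays of A549, an established line of human lung cancer cells. The siTAZ array came from A549 cells transfected with siTAZ, the siYAP array from A549 cells transfected with siYAP, and the siNC array from A549 cells transfected with siNC, the control siRNA. All 3 cultures received siRNA with Lipofectamine RNAiMAX and gave total RNA after 48 h, so transfection itself is common to the control. The question of the series is which genes TAZ or YAP regulates in these cells. Each group holds 1 array, so no value below carries an error, no difference could be set against the spread between cultures, and no p-value is given.

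YAP and TAZ are paralogous transcriptional co-activators that lack a DNA-binding domain of their own and reach their target genes mainly through the TEAD transcription factors. In the Hippo pathway the MST kinases, encoded by STK3 and STK4, activate the LATS kinases, which phosphorylate YAP and TAZ, hold them in the cytoplasm through 14-3-3 proteins and mark them for degradation. Much of their regulation therefore acts on the protein, which these arrays did not measure. Because the paralogs share partners and target genes, the level of each was read in both knockdowns.

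The promoter windows of the targets are shown because the level of each target after the other siRNA is described below, and because the WWTR1 window lies against an antisense gene that has its own probe set. The sequences are RefSeq's (GRCh38.p14), the 250 bases before an annotated transcript start, read 5′ to 3′ on the gene's strand. Capitals mark the TEAD core letters GGAATG or their reverse complement CATTCC, which were searched on both strands with no other motif. The YAP1 window is chr11:102110197-102110446 on the plus strand, and the WWTR1 window is chr3:149658026-149658275 on the minus strand.
YAP1: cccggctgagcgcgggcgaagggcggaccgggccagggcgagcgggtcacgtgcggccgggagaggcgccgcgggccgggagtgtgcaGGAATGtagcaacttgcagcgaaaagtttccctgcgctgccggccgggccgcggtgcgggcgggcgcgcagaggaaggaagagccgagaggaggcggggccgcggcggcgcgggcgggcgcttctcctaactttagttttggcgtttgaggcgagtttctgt
WWTR1: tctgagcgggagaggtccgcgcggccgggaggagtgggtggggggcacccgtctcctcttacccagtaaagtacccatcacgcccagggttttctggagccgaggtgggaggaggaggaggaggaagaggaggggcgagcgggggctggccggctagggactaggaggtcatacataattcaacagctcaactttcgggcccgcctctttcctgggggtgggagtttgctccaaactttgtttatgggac

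The YAP1 window holds 1 match, which begins 162 bases before the end of the window, and the WWTR1 window holds 0. A second WWTR1 start in the same table has a window with 0 matches as well. Of 35116 promoter windows of this length, 4175 (11.9%) hold at least 1 match, and among the windows of the 10768 genes kept by the level filter described below the share is 10.1%. A match in these letters is a description of the window and not a measured TEAD site. The YAP1 window is rich in G and C (72%), and the WWTR1 window shown has 62% and the other WWTR1 window 35.2%, against a median of 58% over all windows and 64% over those of kept genes. The whole table entries, which run on past the start, for the WWTR1 start shown and for the start of WWTR1-AS1, an antisense long non-coding RNA gene, share 284 bases, so these transcripts start head to head. The YAP1 entry shares 89 bases with that of YAP1-DT, a minus-strand long non-coding RNA gene with no named probe set.

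Across the series, the 3 arrays had near-equal medians over 53617 probe sets, at 4.26 (siTAZ), 4.27 (siYAP) and 4.28 (siNC) on the log2 scale. Genes were kept when their brightest probe set averaged at least 4.27 over the 3 arrays, which is the median of all probe sets. As a check of the labelled cell line, 5 of 6 listed epithelial markers had a named probe set. KRT18 and EPCAM had log2 levels of 11.6 and 8.23 in the siNC array. KRT8, KRT19 and KRT7 were lower there, at 6.50, 6.44 and 6.51. All 5 were kept, but so were 10768 of all 14884 named genes, so being kept does not mark a cell type. Of 12 listed markers of leukocytes, endothelial cells and fibroblasts, 6 had a named probe set and 5 of these were kept. CD68, a lysosomal protein gene that is high in macrophages, was at 9.00 after siTAZ and 9.02 after siYAP, against 8.43 in the siNC array. LUM, which encodes the matrix proteoglycan lumican, was at 8.14 after siTAZ and 8.10 after siYAP, against 7.45 in the siNC array. The other 4 named markers, CD14, PECAM1, VWF and THY1, lay between 3.60 and 5.22 in the siNC array, and PTPRC, CD3E, CDH5, COL1A1, COL1A2 and PDGFRB were unnamed. Whether the CD68 and LUM differences bear on the values of the siRNA targets was not tested.

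YAP1 was much lower in the siYAP array than in either other array. The bright YAP1 probe set (16730503) had a log2 level of 6.87 after siYAP and 8.24 after siTAZ, against 8.45 in the siNC array. The siYAP value stands alone at the low end, while the siTAZ and siNC values lie close together. The siYAP level was 2.99-fold lower than the siNC level, which left 33.5% of the control signal, and 2.59-fold lower than the siTAZ level. Array signal includes background hybridisation, so the share that remains is a share of signal and not a count of transcripts.

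Placed among all kept genes, this was the difference of second lowest rank in siYAP minus siNC and of the lowest rank in siYAP minus siTAZ. Over all 53617 probe sets, unnamed and dim ones included, 53 (0.0988%) were as low or lower in siYAP minus siNC. In siYAP minus siTAZ 74 (0.138%) were. In siYAP minus siNC, 13 of 10768 kept genes (0.121%) were at least 2-fold lower. In siYAP minus siTAZ, which does not use the control array, 3 of 10768 (0.0279%) were. Even in the siYAP array, the YAP1 signal was brighter than that of most probe sets: it stood at percentile 85.2 of the siYAP array, against percentile 94.2 in the siNC array.

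**Figure D1:**
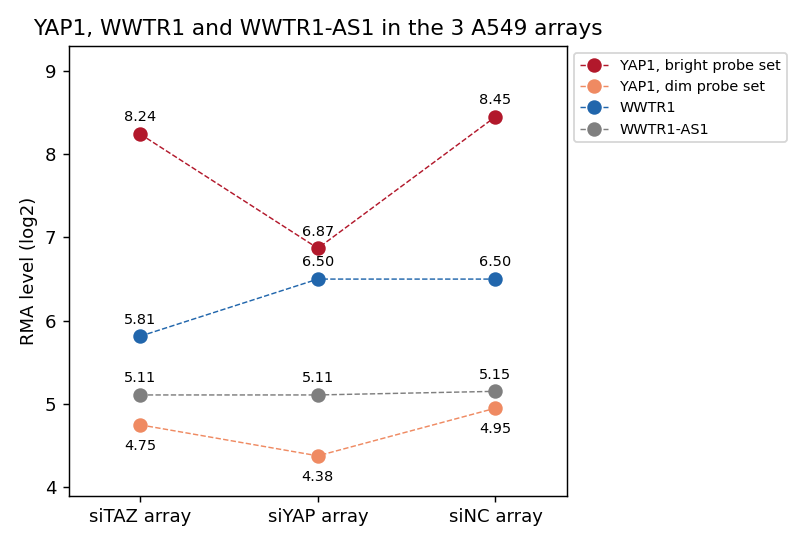
RMA log2 levels (vertical axis) of the 2 YAP1 probe sets, of WWTR1 and of WWTR1-AS1 in the siTAZ, siYAP and siNC arrays (horizontal axis), 1 array per group; dashed lines join values of the same probe set and have no error. The bright YAP1 probe set is lowest in the siYAP array at 6.87, and WWTR1 is lowest in the siTAZ array at 5.81 with 6.50 in both other arrays.

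The second YAP1 probe set was dimmer and showed a smaller difference in the same order of arrays. Probe set 16743628 had a log2 level of 4.38 after siYAP and 4.75 after siTAZ, against 4.95 in the siNC array. It was lowest in the siYAP array and highest in the siNC array, as the bright set was, but its siYAP value was 1.49-fold lower than siNC and left 67.2% of the signal. Among all 16098 named probe sets, each taken on its own, 63 (0.391%) were at least 1.5-fold lower in siYAP minus siNC, and the dim YAP1 set lay just under that fold.

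The 2 probe sets therefore disagreed by 1.01 on the log2 scale about the siYAP difference, while about the siTAZ difference they were 0.0076 apart. This gap was wide beside that of most genes with at least 2 probe sets. Of 433 genes with at least 2 probe sets whose 2 brightest both reached the level filter, the median gap in siYAP minus siNC was 0.019 and the 95th percentile was 0.32, and 1 gene, YAP1 itself, had a gap as large as 1.01. Only 2 of these genes, YAP1 and MIR4454, had a brightest set at least 1.5-fold lower in siYAP minus siNC, and the 2 MIR4454 sets had identical differences. The median and percentile of the gap therefore come almost wholly from genes without a difference of that size. They cannot show how far probe sets agree about a difference as large as that of YAP1. With both probe sets averaged, YAP1 was at -1.08 in siYAP minus siNC and at -0.87 in siYAP minus siTAZ, which is under 2-fold.

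The numbering of the platform separates the YAP1 probe sets. Probe sets are numbered in runs of genes on the same strand: of 11153 named probe sets with a RefSeq strand for the gene and at least 5 neighbours with a strand, out of the 5 named sets on each side, 95.9% sat among neighbours mostly of their own strand. YAP1 lies on the plus strand. The bright set had 5 of 6 such neighbours on the plus strand, whereas all 9 such neighbours of the dim set were minus-strand genes. WWTR1, on the minus strand, had all 8 of its neighbours on the minus strand. Of 779 genes with over 1 probe set, the numbering placed 315 in this way, with a probe set in a run of each strand. In 235 of the 315 (74.6%) the set in the run of the gene's own strand was the brighter, as it was for YAP1. The probes of these sets were not analysed here, so whether the dim set reads YAP1 messenger RNA was not tested.

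WWTR1 was lower in the siTAZ array, by less than the bright YAP1 probe set was in the siYAP array and by more than the dim set was. Its probe set (16960371) had a log2 level of 5.81 after siTAZ and 6.50 after siYAP, against 6.50 in the siNC array. The siYAP and siNC values were identical to the last deposited digit, and the siTAZ value stood alone below them. The siTAZ level was 1.61-fold lower than both others, which left 62.2% of the signal, and WWTR1 stood at percentile 75.1 of the siTAZ array, against percentile 82.2 in the siNC array.

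A difference of this size was uncommon but not rare among the kept genes. In siTAZ minus siNC, 110 of 10768 (1.02%) were at least 1.5-fold lower, and WWTR1 ranked 77 from the lowest. In siYAP minus siTAZ, without the control array, 61 of 10768 (0.566%) had a siYAP level at least 1.5-fold above the siTAZ level, WWTR1 among them. WWTR1 did not reach the 2-fold threshold that 26 kept genes (0.241%) passed in siTAZ minus siNC. When the kept genes were split into quartiles by mean level, WWTR1 was in the third quartile, where 1.15% of 2692 genes were at least 1.5-fold lower in siTAZ minus siNC. YAP1 was in the brightest quartile, where 0.26% of 2692 genes were at least 2-fold lower in siYAP minus siNC.

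**Figure D2:**
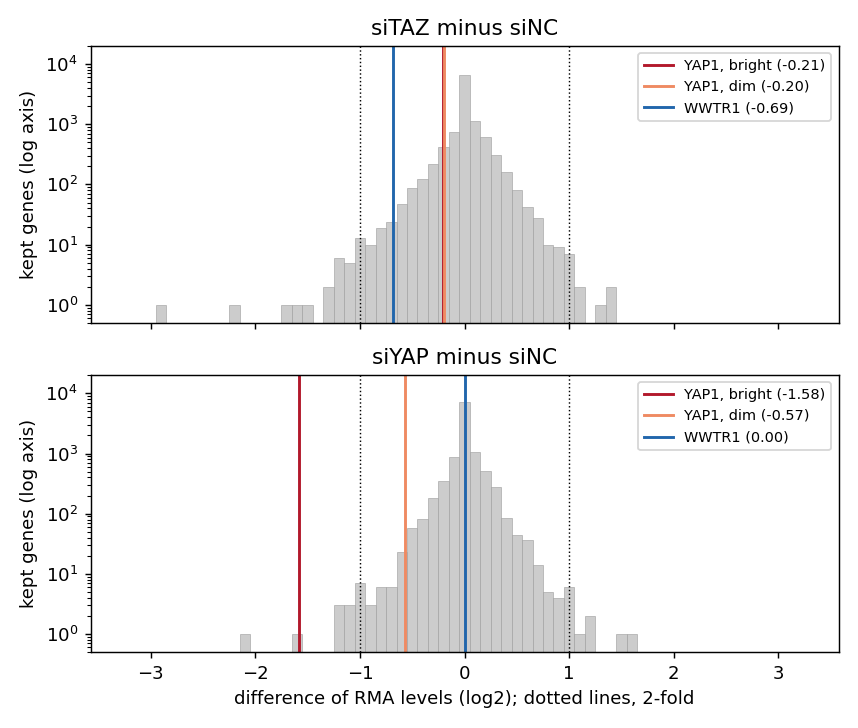
Histograms of the log2 difference from the siNC array over the 10768 kept genes, for siTAZ (top) and siYAP (bottom), with the number of genes on a log axis, dotted lines at 2-fold and coloured lines at the target probe sets. WWTR1 at -0.69 lies inside the lower tail of the siTAZ panel, and the bright YAP1 probe set at -1.58 lies beyond nearly all genes of the siYAP panel.

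The level of each target after the other siRNA was read next. The WWTR1 difference in siYAP minus siNC was 0.00, and exact equality was common in these data, since 5521 of 10768 kept genes (51.3%) had identical siYAP and siNC values. Among the 110 kept genes at least 1.5-fold lower in siTAZ minus siNC, 3 had identical siYAP and siNC values: BROX, WWTR1 and MIR4326. This count cannot be set against the 51.3%, because a choice of genes that differ in siTAZ leaves out genes flat over all arrays. An identical value does not show that WWTR1 transcripts were equally abundant. In the level quartile of WWTR1 the share of identical values was 44.5%.

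YAP1 in the siTAZ array was slightly below the control on both of its probe sets, by 0.21 on the log2 scale for the bright set and by 0.20 for the dim set, which left 86.6% and 87.0% of the signal. Of the kept genes, 720 (6.69%) were as low or lower in siTAZ minus siNC, and 1595 (14.8%) were as far from the control in either direction. The YAP1 difference in the siTAZ array thus lies within the range that many genes covered, and with 1 array its direction has no replicate check. Against the mean of the siYAP and siNC arrays it was at 0.58, a reference that holds the array of its own knockdown. For scale, the 7 kept reference genes, a list that included GAPDH, TBP and HPRT1, ranged from 0 to 0.28 in siTAZ minus siNC and from -0.022 to 0.23 in siYAP minus siNC. With 4 of the 7 identical in the first comparison and 3 in the second, these ranges are a weak guide to the spread at the level of YAP1.

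To avoid resting on the control array alone, each target was also set against both other arrays at once. In the siYAP array 3 of 10768 kept genes (0.0279%) were at least 1.5-fold lower than in both the siTAZ and the siNC array, and these were YAP1, CTPS1 and XPR1. YAP1 was the lowest of the 3 on both differences, at -1.37 from siTAZ and -1.58 from siNC. CTPS1, a CTP synthase, was at -0.75 from siTAZ and just past 2-fold lower than siNC, and XPR1, a phosphate exporter, was at -0.74 from siTAZ and -0.64 from siNC. At 2-fold against both arrays, YAP1, by its bright probe set, was the 1 gene that remained (0.00929%). The dim YAP1 set reached neither fold, at 1.49-fold lower than siNC and 1.29-fold lower than siTAZ. In the siTAZ array 47 kept genes (0.436%) were at least 1.5-fold lower than in both the siYAP and the siNC array. WWTR1 was the 38th of these by its difference from siNC, with -0.69 from either array, and ANKRD1, a target gene of YAP and TAZ, was among the lowest with -1.66 from siYAP and -2.23 from siNC.

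**Figure D3:**
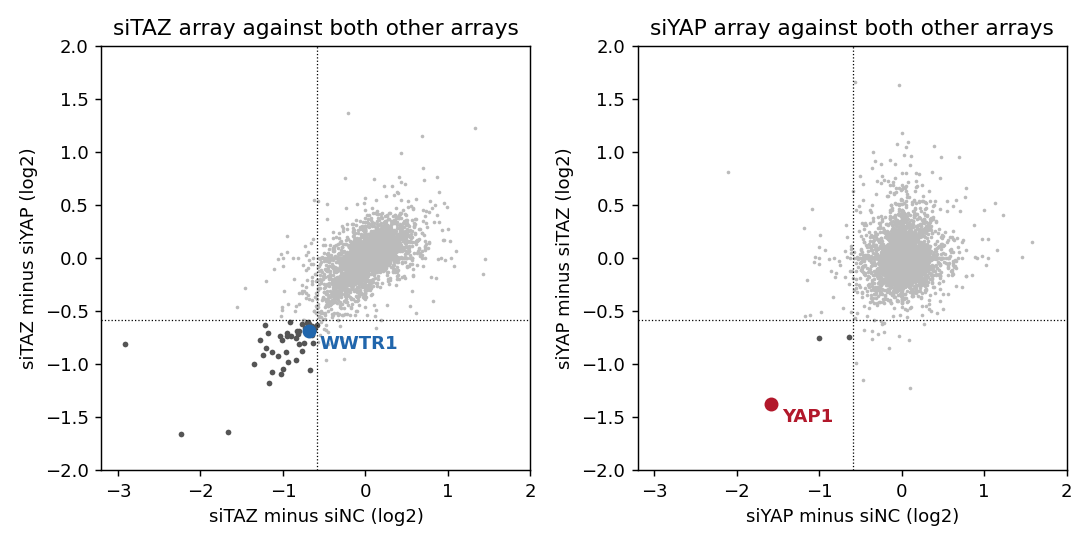
Log2 differences of the siTAZ array (left) and the siYAP array (right) from siNC on the horizontal axis and from the other knockdown on the vertical axis; each grey point is a kept gene, dotted lines mark 1.5-fold, and dark points lie below both lines. The bright YAP1 probe set at -1.58 and -1.37 is far from the cloud, with 2 other genes below both lines. In its panel WWTR1, at -0.69 on both axes, lies among 47 such genes.

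The profiles most like each target were found by the Euclidean distance between the 3 array values after the mean of each gene was subtracted. No kept gene was close to YAP1: 0 lay within 0.1 and 1 within 0.5, where the distance of YAP1 from a flat profile was 1.21. The 5 nearest were CTPS1 at 0.49, DCP2, which encodes an mRNA-decapping enzyme, at 0.59, CXCL8, which encodes interleukin-8 and had a dim siYAP level of 4.02, at 0.59, SCML2, a Polycomb group gene, at 0.62, and XPR1 at 0.68. CTPS1 had a log2 level of 6.86 after siYAP and 7.62 after siTAZ, against 7.87 in the siNC array. Of the others, DCP2, CXCL8 and SCML2 lay between 0.47 and 0.63 below the control in the siTAZ array, which was lower than YAP1 lay there, and XPR1 lay 0.11 above it.

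For WWTR1, 16 kept genes lay within 0.1, where its distance from a flat profile was 0.56. The nearest were the microRNA gene MIR4326 at 0.025, RBBP9, a serine hydrolase gene, at 0.026, UTP25, a ribosome biogenesis factor, at 0.028, LMBR1, a membrane protein gene, at 0.033, and SGPL1, which encodes sphingosine-1-phosphate lyase, at 0.045. RBBP9 had a log2 level of 7.82 after siTAZ and 8.49 after siYAP, against 8.47 in the siNC array. MIR4326, like WWTR1, had identical siYAP and siNC values. Likeness over 3 arrays orders the genes only by these values.

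**Figure D4:**
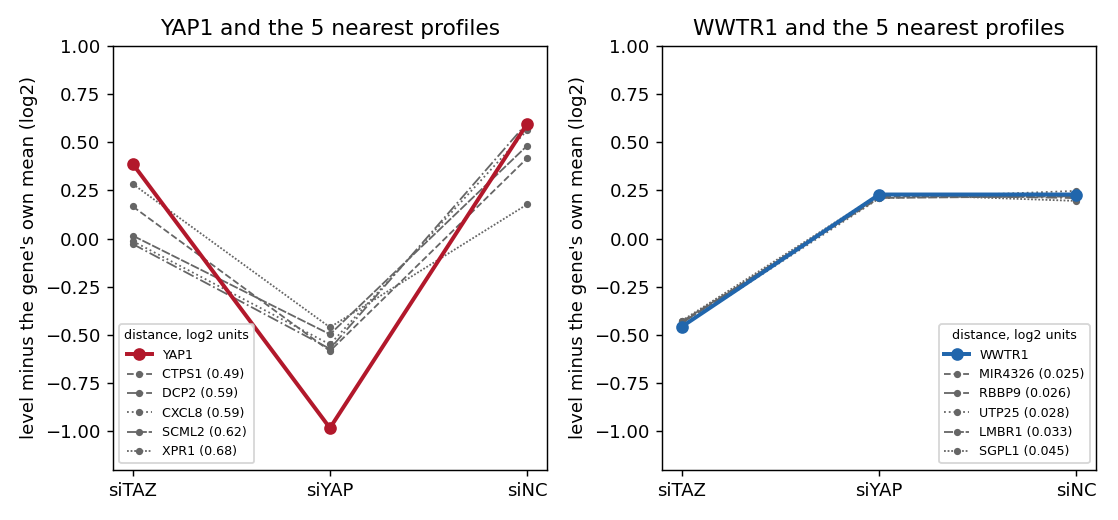
Log2 level minus the gene's own mean over the 3 arrays (vertical axis) in the siTAZ, siYAP and siNC arrays, for YAP1 (left) and WWTR1 (right) as coloured lines and for the 5 nearest kept genes as grey lines, with the distance of each in the legend. The lines nearest to WWTR1 (0.025 to 0.045) nearly cover it, and those nearest to YAP1 (0.49 to 0.68) stay above it in the siYAP array.

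The genes beside each target on its chromosome showed no difference of the target's size. For the 5 named genes on each side of YAP1 in the RefSeq order on chromosome 11, the differences in siYAP minus siNC ranged from -0.31 to 0.00 with a median of 0, and 0 of 10 were at least 1.5-fold apart. In that comparison 0.381% of kept genes were at least 1.5-fold lower and 0.52% higher, and 4 of the 10 neighbours were kept. The count of 0 in 10 is thus near the background and says little about the locus. BIRC2, an inhibitor of apoptosis gene next to YAP1, was at 6.72 in both the siYAP and the siNC array. CFAP300, the gene on the other side, which encodes a cilia-associated protein, was at 5.02 after siYAP and 5.15 after siTAZ, against 5.33 in the siNC array. It was the lowest of the 10 in both comparisons with siNC. CEP126 and TMEM123 had identical values in all 3 arrays, and PGR, MIR3920, ANGPTL5, MMP20, MMP27 and MMP8 were below the level filter and at most 0.11 from the control.

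Beside WWTR1 on chromosome 3, 9 of 10 neighbours were kept, and differences in siTAZ minus siNC ranged from -0.46 to 0.045 with a median of 0, and 0 of 10 were at least 1.5-fold apart from the control, where 1.02% of kept genes were lower and 0.762% higher by that much. A count of 0 in 10 is near that background. WWTR1-AS1 (probe set 16946835) had a log2 level of 5.11 in both the siTAZ and the siYAP array, against 5.15 in the siNC array, so its profile was nearly flat where WWTR1 differed by 0.69. In the numbering, 9 of the 10 neighbours of its probe set were on the plus strand, its own, whereas those of the WWTR1 set were all on the minus strand. The strand of the probes themselves is not given in the sources used here. TM4SF1, a tetraspanin-like membrane protein gene, was at 11.6 in both knockdown arrays, against 12.0 in the siNC array. Its differences of -0.46 (siTAZ) and -0.47 (siYAP) were alike in both knockdowns, unlike those of WWTR1. TM4SF18 followed the same course at -0.34 in both, and CP, which encodes ceruloplasmin, was at -0.24 (siTAZ) and -0.15 (siYAP). TM4SF1 and TM4SF18 lay below the 5th percentile of kept genes in both comparisons, which was -0.257 (siTAZ) and -0.195 (siYAP). TM4SF4 and RNF13 had identical values in all 3 arrays, and HPS3, COMMD2, ANKUB1 and PFN2 were within 0.05 of the control.

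**Figure D5:**
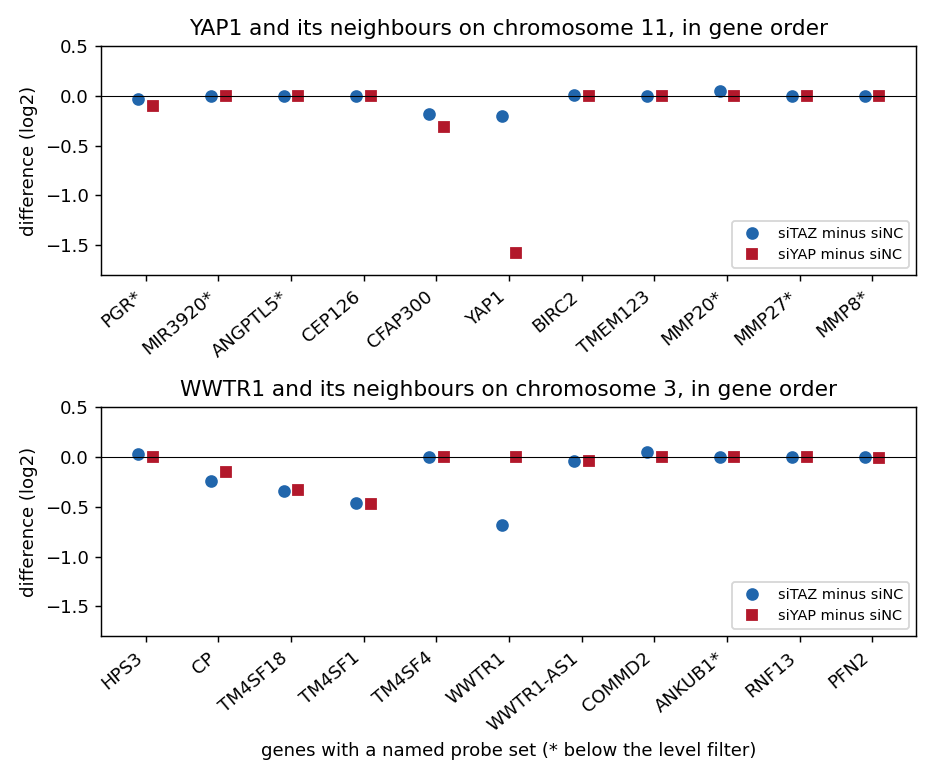
Log2 differences from siNC for the siTAZ array (circles) and the siYAP array (squares), for YAP1 (top) and WWTR1 (bottom) with 5 named genes on each side in order along the chromosome; a star marks genes below the level filter. YAP1 stands out at -1.58 in siYAP with its neighbours at -0.31 or above, and WWTR1 at -0.69 in siTAZ with its neighbours at -0.46 or above.

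The genes that act on YAP and TAZ were described as lists, counted at 1.5-fold beside the share of all kept genes. In siTAZ minus siNC 1.02% of kept genes were at least 1.5-fold lower and 0.762% higher, and in siYAP minus siNC 0.381% lower and 0.52% higher. Of 23 listed Hippo kinases and scaffolds, 18 were kept, and 0 of them reached 1.5-fold in either comparison, with medians of 0 (siTAZ) and -0.038 (siYAP), beside a median of 0 over all kept genes. The members farthest from the control were AJUBA, a LIM-domain scaffold gene, and NF2, the upstream scaffold merlin. AJUBA was at 6.48 after siTAZ and 6.65 after siYAP, with differences from siNC of -0.51 (siTAZ) and -0.35 (siYAP). NF2 was at 7.56 after siTAZ and 7.15 after siYAP, against 7.08 in the siNC array. LATS1 and LATS2, the kinases that phosphorylate YAP and TAZ, had no named probe set.

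Of 28 listed direct binding partners of YAP or TAZ, 15 were kept, with a median of 0 in both comparisons. In siTAZ minus siNC 1 was at least 1.5-fold lower and 2 were higher, and in siYAP minus siNC 0 were. Among the TEAD factors, the DNA-binding partners, TEAD1 was at 8.98 after siTAZ and 8.96 after siYAP, against 9.15 in the siNC array, and TEAD2, TEAD3 and TEAD4 were within 0.07 of the control in both knockdowns. The partners past 1.5-fold in the siTAZ array were AMOTL2, an angiomotin that binds YAP and is also its target gene, at -0.60, SFN, a 14-3-3 protein gene, at 0.63, and WBP2, which encodes a WW domain-binding protein, at 0.65. In the siYAP array the differences were -0.38 for AMOTL2, 0.57 for SFN and 0.56 for WBP2, so SFN and WBP2 lay above the control by similar amounts in both.

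Of 16 listed genes that modify YAP or TAZ or lead to their degradation, 10 were kept, with medians of -0.023 (siTAZ) and -0.10 (siYAP). In each comparison 1 was at least 1.5-fold lower and 0 were higher. This was YOD1, a deubiquitinase gene of the pathway, at 5.48 after siTAZ and 5.49 after siYAP, against 6.16 in the siNC array. FBXW11, a substrate receptor of the ubiquitin ligase that acts on phosphorylated YAP and TAZ, was at 6.40 after siTAZ and 6.82 after siYAP, against 6.86 in the siNC array. GSK3B, a kinase that takes part in TAZ degradation, was at 9.07 after siTAZ and 9.44 after siYAP, against 9.58 in the siNC array. Both were lower in the siTAZ array than in the other arrays, by less than 1.5-fold. Of 14 listed genes of the RNA interference machinery, through which siRNAs act, 7 were kept, 0 reached 1.5-fold in either comparison, and AGO2 and DICER1 had no named probe set.

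Downstream, 13 of 23 listed YAP/TAZ target genes were kept. In siTAZ minus siNC 6 of the 13 were at least 1.5-fold lower and 0 higher, with a median of -0.51. Of all kept genes, 1.02% were lower and 0.762% higher by that much. In siYAP minus siNC 2 of the 13 were at least 1.5-fold lower and 0 higher, with a median of -0.36. Of all kept genes, 0.381% were lower and 0.52% higher there. The WWTR1 signal was 62.2% of control after siTAZ. After siYAP, the YAP1 signal was 33.5% of control on the bright probe set and 67.2% on the dim set. These shares come from probe sets of unlike brightness, so they do not rank the depth of the knockdowns. Whether the target genes depend more on TAZ or on YAP was not tested. The list was chosen with earlier results of these arrays known, so its direction is not independent evidence. CCN2, a matricellular protein gene, was at 6.35 after siTAZ and 6.81 after siYAP, against 7.90 in the siNC array. AXL, a receptor tyrosine kinase gene, was at 7.78 after siTAZ and 8.06 after siYAP, against 9.24 in the siNC array. ANKRD1 was at 4.18 after siTAZ and 5.84 after siYAP, against 6.41 in the siNC array, a wide step between the knockdowns that ends below the level filter in the siTAZ array. DOCK5, a guanine nucleotide exchange factor gene, was at 8.36 after siTAZ and 8.91 after siYAP, against 9.38 in the siNC array. CRIM1, a transmembrane protein gene, was at 9.00 after siTAZ and 9.31 after siYAP, against 9.75 in the siNC array. These 5 genes were each lowest in the siTAZ array and highest in the siNC array, but they were named for their size or in advance. AMOTL2, MYOF and AJUBA of the list had the same order, and the remaining kept members differed. FOXF2, a forkhead factor gene, was at 6.86 after siTAZ and 6.55 after siYAP, against 6.33 in the siNC array. IGFBP3 was within 0.04 of the control, and FJX1, ARHGEF17 and AMOTL1 had identical values in all 3 arrays. Directly between the knockdowns, siYAP minus siTAZ, the 13 target genes had a median of 0.16, beside 0 over all kept genes. CCN1, another widely used target gene, had no named probe set.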

How the data were processed

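Per the labels' protocols, 500 ng of RNA per culture went into cDNA synthesis and biotin labelling. The authors deposited 1 value per probe set and array, summarised with RMA per the submitters' processing notes; no version or genome build is stated there. The deposited values lay between 0.96 and 13.5 with similar quartiles on each array, and their scale was taken to be log2. Quantile normalization within RMA expresses each value against the rest of its own array.

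Gene symbols came from the platform annotation (16098 of 53617 probe sets named, 0 with several symbols). All 16098 Entrez identifiers matched RefSeq GRCh38.p14, which updated 0 symbols and was otherwise used only for promoter sequences, strands and the order of genes. Each target probe set was read on its own. Other genes were represented by their brightest probe set and kept at a mean of at least 4.27 (10768 genes). Differences are between log2 levels, and counts were taken at 2-fold and 1.5-fold with pandas 2.3.3 and numpy 2.4.6. The counting and likeness steps were run on simulated data with normal noise of the same spread for every gene. The real values hold many exact ties, so that run checked the code and says nothing on the reliability of the counts. With 1 array per group there was no test, and the number of arrays limits the precision.

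The members and lists were chosen with earlier results of these data known. The genes named were the targets, the 5 nearest profiles of each, 5 named chromosome neighbours on each side, 11 genes fixed by name, and, for each list, up to 4 members past 1.5-fold. AJUBA, NF2, FBXW11, GSK3B, FOXF2, MYOF, BROX and the genes low against both other arrays were named after their values were seen. So were AGO2, DICER1 and the markers and reference genes given as examples. Alternatives were a median shift, a loess trend (span 0.4, statsmodels 0.14.6), the mean of all probe sets, a repeated quantile normalization, another reference array and other level filters.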

Additional observations from a re-analysis of the deposited data

How the results depend on the processing

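A value was called moved when it differed by 0.1 or more on the log2 scale, and a count when it differed by over 1.5 times. With the mean of all probe sets, YAP1 was at -1.08 in siYAP minus siNC and -0.87 in siYAP minus siTAZ, which takes the second under 2-fold; averaging in the dim probe set produces this by construction. With the mean of the siNC array and the other knockdown as reference, YAP1 was at -1.48 in the siYAP array and at 0.58 in the siTAZ array, and WWTR1 was at 0.34 in the siYAP array. The last 2 shifts follow from each target's own knockdown array entering the reference. WWTR1 in siTAZ minus siNC was at -0.69 under all 5 of its alternatives, but most of these could not move it. WWTR1 has 1 probe set and identical siYAP and siNC values, so the probe set mean and the other reference return the same value. The median difference was 0 in each comparison, so the median shift could change no value or count. The 4 counts of genes at least 2-fold or 1.5-fold lower stayed within 1.5 times under all 6 alternatives each. In siTAZ minus siNC they ranged from 23 to 27 at 2-fold and from 90 to 126 at 1.5-fold, and in siYAP minus siNC from 11 to 16 and from 34 to 57. No paired analysis was possible because each group has 1 array and the labels give no replicate numbers. For the same reason no replicate could be left out. Signal over background was not available, so how far dim values, such as the second YAP1 probe set, are compressed was not tested.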
